A study of Mus musculus with 2 samples.

Results

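The insulin-like growth factor (IGF) genes described here are 10 of the 32285 genes listed in the files. They are the ligands *Igf1* and *Igf2*, the noncoding RNA *H19* that neighbours *Igf2*, the receptors *Igf1r* and *Igf2r*, and the binding proteins *Igfbp3*, *Igfbp4*, *Igfbp5*, *Igfbp6* and *Igfbp7*. They were chosen by gene symbol, with earlier results of these data known. Each has 1 row in the gene list of either sample, and all 10 passed the filter on low counts. Their UMIs (unique molecular identifiers, 1 for each captured transcript) were read in 11 cell types of the dorsal root ganglion (DRG), the ganglion that holds the cell bodies of sensory neurons.

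Both samples, replicates 1 and 2, hold L4 and L5 ganglia of naive female C57BL/6 mice, 3 months old, with no treatment or engineered allele named. The tissue was digested with papain and collagenase, live cells were sorted, and polyadenylated RNA was captured at its 3′ end in droplets. Comparisons are therefore between cell types measured in both samples, not between conditions. The number of animals behind each sample is not given in the sources used here, and p-values measure only the spread between these 2 samples.

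IGF1 and IGF2 are small secreted growth factors. Both activate IGF1R, a receptor tyrosine kinase, whereas IGF2R takes IGF2 up for breakdown and also carries lysosomal enzymes. Secreted binding proteins hold the ligands and set how much of them reaches a receptor, with IGFBP6 favouring IGF2 and IGFBP7 binding IGFs only weakly. *Igf2* and *H19* are imprinted neighbours, read from the paternal and the maternal chromosome respectively, and *Igf2r* is imprinted in most mouse tissues.

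From 119101743 UMIs in replicate 1 and 128668771 in replicate 2, 17588 cells were called, and 16324 of them fell into 11 named types. Satellite glial cells (SGCs), which wrap neuron cell bodies, were the most frequent with 8479 cells, and neurons the rarest with 109. Fibroblasts divided into a subtype with *Smoc2*, *Ccl11* and *Gpc3* (612 cells) and one with *Slc4a10*, *Sfrp4* and *Bnc2* (401 cells), called *Smoc2* and *Slc4a10* fibroblasts below. Each of the 16 marker genes that the study used was highest in its own type, *L1cam* by little, in counts-per-million (CPM) 205.8 in non-myelinating Schwann cells and 205 in neurons. Types were named from markers, so levels of markers describe the naming and are no separate check of it. Of 8 perineurial markers, 6 reached 10 CPM in the 181 perineurial-like cells, where the list summed to 1885 CPM, against 35.01 to 583.6 in the other types. All 14 fibroblast markers reached 10 CPM in these cells too, with a sum of 27200 CPM. That sum was 29110 CPM in *Slc4a10* and 48250 CPM in *Smoc2* fibroblasts. Barcodes called as cells in both samples numbered 135, and 59 of the 109 neurons carry such a barcode. Neurons are therefore given without them too, further below. Leukocytes were shallow, with a median of 1521 and 1489 UMIs per cell.

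Positions of the genes were taken from GENCODE M21 on GRCm38, where all 10 were found by gene ID. *H19* lies at chr7:142575529-142578143 and *Igf2* at chr7:142650766-142666816, both on the minus strand and 72622 bases apart. *Igf1* lies at chr10:87858265-87937042 (plus strand), *Igf1r* at chr7:67952827-68233668 (plus) and *Igf2r* at chr17:12682406-12769664 (minus). Of the binding proteins, *Igfbp3* lies at chr11:7206086-7213923 (minus), *Igfbp4* at chr11:99041244-99054392 (plus), *Igfbp5* at chr1:72857932-72874884 (minus), *Igfbp6* at chr15:102144362-102149511 (plus) and *Igfbp7* at chr5:77349240-77408041 (minus). A microRNA lies inside each of *H19* and *Igf2* on the same strand, miR-675 in an exon of *H19* and miR-483 in an intron of *Igf2*. Their mature forms are shown, from RefSeq on GRCm38.p6, because they are further products of the pair of genes that follow each other most closely below. These libraries capture long polyadenylated RNA and do not measure them. Capitals mark the seed, bases 2 to 8. Among 1738 mature mouse microRNAs of the table each of these seeds occurs 1 time.
mmu-miR-675-5p: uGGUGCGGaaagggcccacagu
mmu-miR-675-3p: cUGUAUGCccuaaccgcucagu
mmu-miR-483-5p: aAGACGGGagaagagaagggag
mmu-miR-483-3p: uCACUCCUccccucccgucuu

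RefSeq gives a promoter for 9 of the 10 genes, at 12 start sites, with no entry for *H19*. The 100 bases before the start are printed for 5 genes that between them were highest in 4 different types, to show how unlike they are in sequence. Capitals mark the TATA box TATAAA and the GC box GGGCGG, searched on both strands, which do not overlap each other here. TATAAA occurs in 5.561% and GGGCGG in 24.68% of the 32851 promoters of that table over the same length. The windows lie at chr7:142657497-142657596 (minus strand) for the first *Igf2* site, at chr7:67952157-67952256 (plus) for *Igf1r*, at chr11:99041144-99041243 (plus) for *Igfbp4*, at chr15:102144086-102144185 (plus) for *Igfbp6* and at chr5:77408046-77408145 (minus) for *Igfbp7*, all outside annotated exons.
Igf2, first site: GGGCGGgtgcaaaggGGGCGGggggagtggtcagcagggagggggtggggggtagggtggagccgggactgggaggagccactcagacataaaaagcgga
Igf1r: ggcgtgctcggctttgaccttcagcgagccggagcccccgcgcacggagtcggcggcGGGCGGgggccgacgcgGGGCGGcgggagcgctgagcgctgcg
Igfbp4: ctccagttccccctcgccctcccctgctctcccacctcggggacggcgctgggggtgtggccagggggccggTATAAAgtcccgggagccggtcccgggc
Igfbp6: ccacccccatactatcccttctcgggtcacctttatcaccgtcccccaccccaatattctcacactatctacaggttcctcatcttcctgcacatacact
Igfbp7: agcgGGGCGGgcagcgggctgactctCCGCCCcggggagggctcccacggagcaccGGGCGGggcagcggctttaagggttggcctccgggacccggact

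The TATA box of *Igfbp4* starts 28 bases before the start site. *Igfbp7* holds 3 GC boxes, and *Igf2* and *Igf1r* hold 2 each. In *Igfbp6* neither motif was found in this window, whose GC content is 51%, whereas it is 81% for *Igf1r* and has a median of 55% over the table. A 3′ library does not show which start site a transcript used, so the 4 start sites of *Igf2* cannot be told apart in these counts.

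Levels of the 10 genes are given as counts-per-million after TMM scaling, made from the UMIs of a gene summed over the cells of a type in a sample, a sum called a profile. They are compared between types for a single gene and not between genes. Each of the 10 genes differed between types in edgeR's omnibus test, as did 90.5% of the 18175 genes tested, so that count says little about these genes in particular. Of the 110 pairs of a gene and a type, 39 were higher and 48 were lower than the mean of the other types, shares of which the background over all genes is 24.3% and 18.4%. Because the genes were chosen with earlier results known, counts beside a background, here and below, describe these genes and are no test of them as a set. The 10 genes and the pathway and imprinted genes listed further on were kept out of the genes used for clustering. The types were still clustered from the same cells, and *Igf1*, *H19*, *Igfbp5* and *Igfbp6* stand among the 10 leading genes of clusters within *Slc4a10* fibroblasts, so their tests there give the size of a difference against the spread between samples and not independent evidence for the type. The same holds for *Igfbp7*, which is among the 10 leading genes of the endothelial and of the mural cluster.

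**Figure D1:**
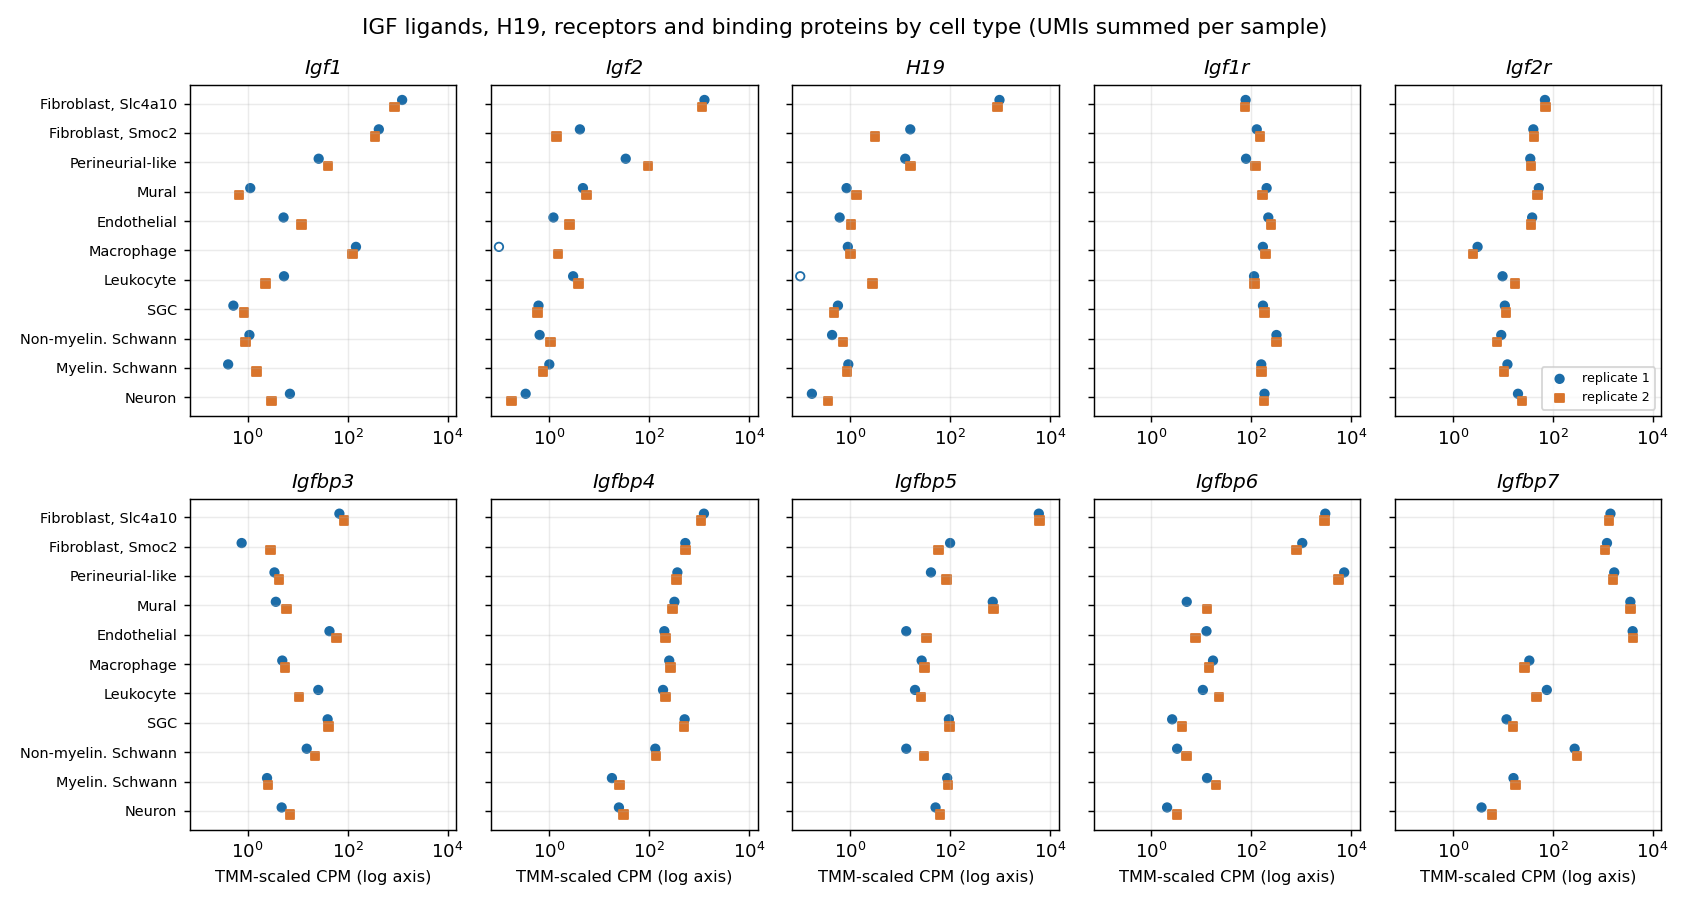
Level of each gene (x axis, TMM-scaled CPM on a log axis) in 11 cell types (rows) for replicate 1 (circles) and replicate 2 (squares), with open symbols drawn at 0.1 where no UMI was found. *Slc4a10* fibroblasts hold the highest level of 7 of the 10 genes, whereas *Igf1r* varies least, from 73.9 to 319.8 CPM.

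*Slc4a10* fibroblasts held the highest level of *Igf1*, *Igf2*, *H19*, *Igf2r*, *Igfbp3*, *Igfbp4* and *Igfbp5*. *Igf1r* was highest in non-myelinating Schwann cells, *Igfbp6* in perineurial-like cells and *Igfbp7* in endothelial cells. In 9 of the 10 genes the highest type differed from the next type, against 41.5% of all genes tested. The pair was picked from the levels, so these p-values belong to types chosen for being highest. The 9 include *Igf2* and *Igfbp6*, which were known to lead the clusters they are highest in and are given below without a p.

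*Igf1*, the ligand that also mediates growth hormone, was highest in *Slc4a10* fibroblasts, with 1234 CPM in the first replicate and 869.9 CPM in the second (1052 ± 257, SD, n = 2). *Smoc2* fibroblasts held 421.6 and 349.5 CPM, and macrophages 147 and 125 CPM. Perineurial-like cells followed with 26.4 and 40.1 CPM. These 4 types do not overlap, and each was higher than the next in both samples. The log2 difference was 1.45 (SE 0.23, edgeR adjusted p = 0.000239) between the fibroblast subtypes, 1.497 (SE 0.25, adjusted p = 0.000176) from *Smoc2* fibroblasts to macrophages and 1.963 (SE 0.35, adjusted p = 0.000363) from macrophages to perineurial-like cells. Perineurial-like cells were in turn above endothelial cells (5.23 and 11.99 CPM) by 1.98 (SE 0.48, adjusted p = 0.00466). Further down, no neighbour differed from the next by this test, with adjusted p from 0.205 to 1. SGCs, the most frequent cells, stood at 0.518 and 0.843 CPM.

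*Igf2*, the ligand best known from fetal growth, was at 1295 and 1162 CPM in *Slc4a10* fibroblasts (1229 ± 93.5, SD, n = 2). Perineurial-like cells came next with 34.4 and 95.8 CPM, from 30 and 160 UMIs. In every other type the level lay below 6 CPM, including *Smoc2* fibroblasts at 4.17 and 1.43 CPM and neurons at 0.342 and 0.178 CPM. The distance from *Slc4a10* fibroblasts to perineurial-like cells was 4.10 on the log2 scale (SE 0.25). It was 5.23 without replicate 2, and 8.28 with log normalization before clustering, where perineurial-like cells numbered 154 in place of 181 and shared 149 with them. *Slc4a10* fibroblasts were 2.27% of the cells of replicate 1 and 2.64% of those of replicate 2, and they held 96.7% and 92.8% of the *Igf2* UMIs. Among perineurial-like cells the 10% with the most *Igf2* UMIs held 95.8% of them, and a single cell held 107. Perineurial-like cells were above mural cells (4.79 and 5.69 CPM) by 3.78 (SE 0.40, adjusted p = 1.82e-06). No other neighbours in the order differed, with adjusted p from 0.302 to 1.

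*H19*, a noncoding RNA abundant in the embryo, was at 970.9 and 878.4 CPM in *Slc4a10* fibroblasts (925 ± 65.4, SD, n = 2). Perineurial-like cells held 12.6 and 16.2 CPM and *Smoc2* fibroblasts 15.9 and 3.102 CPM. All other types were under 3 CPM in both samples. *Slc4a10* fibroblasts were apart from every other type, by 5.95 on the log2 scale over perineurial-like cells (SE 0.31, adjusted p = 4.96e-10), and by 7.15 with log normalization before clustering. Perineurial-like cells and *Smoc2* fibroblasts overlapped and did not differ by the test (log2 difference 0.85, SE 0.54, adjusted p = 0.349). Of all *H19* UMIs in named types, *Slc4a10* fibroblasts held 96.0% and 96.2%.

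*Igf1r*, the signalling receptor of both ligands, was detected in every type and differed least. Non-myelinating Schwann cells, which ensheathe small axons, held 316.8 and 319.8 CPM (318.3 ± 2.17, SD, n = 2). Endothelial cells held 217.5 and 245.8 CPM and *Slc4a10* fibroblasts, the lowest, 76.5 and 73.9 CPM. Non-myelinating Schwann cells were above endothelial cells by 0.46 (SE 0.12, adjusted p = 0.00266), a call that was lost at a clustering resolution of 1.2 (adjusted p = 0.053). Endothelial cells were above mural cells by 0.33 (SE 0.12, adjusted p = 0.0338). Between mural cells, neurons, macrophages, SGCs, myelinating Schwann cells, *Smoc2* fibroblasts, leukocytes and perineurial-like cells, which fall in this order from 184 to 99.2 CPM on average, no neighbour differed from the next (adjusted p from 0.115 to 0.993). Perineurial-like cells were above *Slc4a10* fibroblasts by 0.45 (SE 0.15, adjusted p = 0.0427). The type with the highest level of both ligands thus had the lowest level of this receptor.

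*Igf2r*, the receptor that clears IGF2, ran the other way, with 70.0 and 71.1 CPM in *Slc4a10* fibroblasts (70.6 ± 0.762, SD, n = 2). Mural cells, the contractile cells of vessel walls, held 52.7 and 49.9 CPM, and *Smoc2* fibroblasts 40.9 and 41.99 CPM. Endothelial and perineurial-like cells lay between 35.6 and 38.8 CPM, and macrophages were lowest at 3.14 and 2.55 CPM. The step from *Slc4a10* fibroblasts to mural cells was 0.46 (SE 0.14, adjusted p = 0.00907), and it was lost without cells of a high doublet score (0.28, adjusted p = 0.107). Mural cells, *Smoc2* fibroblasts, endothelial cells and perineurial-like cells did not differ as neighbours (adjusted p from 0.0989 to 0.915). Perineurial-like cells were above neurons (20.2 and 24.4 CPM) by 0.71 (SE 0.18, adjusted p = 0.00222). *Airn*, a noncoding gene on the opposite strand, overlaps *Igf2r*, and whether the counting used strand is not given in the sources used here.

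*Igfbp3*, the main IGF carrier of blood, was at 68.5 and 85.6 CPM in *Slc4a10* fibroblasts (77.1 ± 12.1, SD, n = 2), at 43.4 and 59.96 CPM in endothelial cells and at 39.8 and 41.8 CPM in SGCs. *Smoc2* fibroblasts were lowest with 0.758 and 2.86 CPM, from 2 and 12 UMIs. The samples of *Slc4a10* fibroblasts and endothelial cells do not overlap, by a narrow gap, and differed by 0.57 (SE 0.21, adjusted p = 0.0339). That call was lost under 4 of 12 other settings, with an adjusted p of 0.166 in DESeq2, 0.058 after subtraction of free RNA, 0.0761 without cells of a high doublet score and 0.166 after another normalization before clustering. Endothelial cells and SGCs did not differ by the test (adjusted p = 0.130). SGCs were above non-myelinating Schwann cells (15.2 and 22.4 CPM) by 1.10 (SE 0.21, adjusted p = 0.000344).

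*Igfbp4*, whose protein is cut by the protease PAPP-A, was at 1264 and 1095 CPM in *Slc4a10* fibroblasts (1179 ± 120, SD, n = 2). *Smoc2* fibroblasts held 536.1 and 536.4 CPM and SGCs 519 and 510.04 CPM. Myelinating Schwann cells were lowest at 18.2 and 25.7 CPM. *Slc4a10* fibroblasts were higher than *Smoc2* fibroblasts by 1.14 (SE 0.11, adjusted p = 2.22e-08). *Smoc2* fibroblasts and SGCs did not differ (log2 difference 0.06, SE 0.11, adjusted p = 0.705). SGCs were above perineurial-like cells by 0.50 (SE 0.12, adjusted p = 0.00131). Because SGCs are frequent, they held 78.2% and 75.9% of the *Igfbp4* UMIs of named types. Empty droplets, whose RNA is free in the suspension, held 575 and 480.1 CPM of *Igfbp4*, and at their highest estimated share of any profile they account for 13.6 CPM of it. That estimate is no firm upper limit, as given further below.

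*Igfbp5*, a binding protein that attaches to extracellular matrix, was at 5949 and 6139.5 CPM in *Slc4a10* fibroblasts (6044 ± 135, SD, n = 2). Mural cells followed with 712 and 739.8 CPM, and SGCs with 94.3 and 97.9 CPM. Endothelial cells, next to mural cells in vessels, held 13.2 and 33.4 CPM. Both steps at the top were clear of the spread, 3.06 from *Slc4a10* fibroblasts to mural cells (SE 0.34, adjusted p = 1.27e-05) and 2.92 from mural cells to SGCs (SE 0.34, adjusted p = 1.35e-05). No further neighbours differed, with adjusted p from 0.0740 to 1. *Slc4a10* fibroblasts held 61.4% and 62.9% of all *Igfbp5* UMIs.

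*Igfbp6*, which binds IGF2 in preference to IGF1, was at 7182 and 5485 CPM in perineurial-like cells (6333 ± 1200, SD, n = 2). *Slc4a10* fibroblasts held 3003 and 2867 CPM, *Smoc2* fibroblasts 1040.4 and 798 CPM, and no other type exceeded 22.6 CPM. The 3 connective tissue types do not overlap with each other or with the rest. Perineurial-like cells were 1.11 above *Slc4a10* fibroblasts on the log2 scale (SE 0.27), and *Smoc2* fibroblasts were above leukocytes, the next type, by 5.73 (SE 0.40, adjusted p = 6.58e-08). Below that no neighbours differed (adjusted p from 0.211 to 0.947).

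*Igfbp7*, a secreted protein of vessel walls, was at 3981 and 4042 CPM in endothelial cells (4011 ± 43.7, SD, n = 2) and at 3578 and 3574 CPM in mural cells. Perineurial-like cells held 1701 and 1591 CPM, *Slc4a10* fibroblasts 1431 and 1342 CPM and *Smoc2* fibroblasts 1219 and 1119.9 CPM. Neurons were lowest at 3.77 and 6.05 CPM. Endothelial and mural cells did not differ by the test (log2 difference 0.17, SE 0.14, adjusted p = 0.395), and mural cells were above perineurial-like cells by 1.12 (SE 0.14, adjusted p = 3.45e-06). The 3 connective tissue types did not differ as neighbours (adjusted p = 0.297 and 0.246). Non-myelinating Schwann cells (275 and 308 CPM) were above leukocytes by 2.26 (SE 0.17, adjusted p = 1.81e-09), and myelinating Schwann cells held 16.4 and 18.0 CPM.

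Read by type against the mean of the other types, *Slc4a10* fibroblasts were higher in 9 genes, all but *Igf1r*, where 21.4% of all genes were higher. *Igf1r* alone was lower there, at -1.18 (SE 0.11, adjusted p = 3.07e-09), where 15.1% of all genes were lower. *Smoc2* fibroblasts were higher in 6 genes (background 22.5%) and lower in *Igfbp3* (15.8%). Perineurial-like cells were higher in 7 (16.4%) and lower in *Igf1r* and *Igfbp3* (11.4%), where the calls on *Igf2* and *H19* were kept in 11 of 12 other settings and that on *Igfbp3* in 10. Mural cells were higher in 5, which were *Igf1r*, *Igf2r*, *Igfbp4*, *Igfbp5* and *Igfbp7* (20%), and lower in *Igf1*, *Igfbp3* and *Igfbp6* (15.1%). The call on *Igf1r* in mural cells was kept in 9 of 12 other settings, that on *Igfbp3* in 10 and that on *Igfbp6* in 11. Endothelial cells were higher in *Igf1r*, *Igf2r*, *Igfbp3* and *Igfbp7* (25.2%) and lower in *Igfbp5* and *Igfbp6* (20.3%).

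The glia were lower in most of these genes. SGCs were higher in *Igfbp3* by 2.16 (SE 0.14, adjusted p = 3.72e-11) and *Igfbp4* by 1.42 (SE 0.07, adjusted p = 2.06e-14), where 31.7% of all genes were higher, and lower in 6 (20.6%). Non-myelinating Schwann cells were higher in *Igf1r*, *Igfbp3* and *Igfbp7* (20%) and lower in the other 7 (16.1%). Of these the call on *H19* was kept in 4 of 12 other settings, and those on *Igf2* and *Igfbp7* in 10. Myelinating Schwann cells were higher in 0 of the 10 genes (28%) and lower in 8 (22%), with *Igf1r* and *Igfbp5* not passing the test. The call on *H19* was kept there in 6 of 12 other settings.

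Macrophages were higher in *Igf1* by 4.05 (SE 0.23, adjusted p = 1.69e-09) and in *Igfbp4* by 0.36 (SE 0.09, adjusted p = 0.00139), where 23% of all genes were higher, and lower in 5 (21.5%), of which the call on *Igfbp3* was kept in 8 of 12 other settings and that on *Igfbp6* in 10. *Fabp7*, an SGC marker, was at 1293 and 1814 CPM in macrophages beside the *Igfbp4* result. With free RNA subtracted by the estimate given further below, *Igfbp4* was still higher by 0.52 (adjusted p = 5.86e-05). Without cells of a high doublet score *Fabp7* in macrophages was 144.1 and 277.1 CPM, and *Igfbp4* differed by 0.09 (adjusted p = 0.560). The call was also lost with the UMI cutoff of the other types applied to neurons (0.05, adjusted p = 0.747). The *Igf1* level in macrophages was not lower without those cells (152.8 and 135.1 CPM, against 125.3 and 111 with them, both without TMM scaling). Leukocytes were higher in 0 genes (22%) and lower in 5 (17.2%), with *Fabp7* at 2858 and 3340 CPM without TMM scaling, whose part in these results was not tested. The call on *Igf2r* in leukocytes was kept in 6 of 12 other settings, that on *Igfbp6* in 10 and that on *Igfbp7* in 11. All 10 SGC markers reached 10 CPM in leukocytes, with a sum of 4152 CPM, beside 9 of 12 leukocyte markers with a sum of 9911 CPM. The type itself was 54 cells at a clustering resolution of 1.2 and 104 with log normalization before clustering, where 83 were among the 444 cells described here.

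Neurons were higher in *Igf1r* by 0.22 (SE 0.09, adjusted p = 0.0307), where 36.8% of all genes were higher, and lower in 8 genes (27.5%). Of the 109 neurons, 91 were over the cutoff of 45811.7 UMIs that removed cells of other types, and they were kept. With the cutoff applied to neurons too, not enough of them were left for a profile. Without the barcodes found in both samples, 3 of the 9 calls held. *Igfbp4* was then lower at -2.83 (adjusted p = 4.86e-15), *Igfbp6* at -3.35 (adjusted p = 9.31e-05) and *Igfbp7* at -5.47 (adjusted p = 1.42e-12). *Igf1r* differed by 0.23 (adjusted p = 0.0767), *Igf1* by -0.05 (adjusted p = 1), and the calls on *Igf2*, *H19*, *Igfbp3* and *Igfbp5* were lost as well. Levels in neurons were then 12.4 and 10.1 CPM of *Igf1*, 176 and 190.7 of *Igf1r*, 25.5 and 14.1 of *Igf2r* and 2.18 and 10.7 of *Igfbp7*, and *Igf2* had 1 UMI in each sample. Next to neurons in the order of the levels, perineurial-like cells were still above them in *Igf2r* by 0.86 (adjusted p = 0.0121) and SGCs in *Igfbp7* by 1.10 (adjusted p = 0.0213). Neurons and leukocytes no longer differed in *Igf2r* by the test (0.52, adjusted p = 0.189), and neurons were above macrophages in *Igfbp5* by 1.38 (adjusted p = 0.0292).

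**Figure D2:**
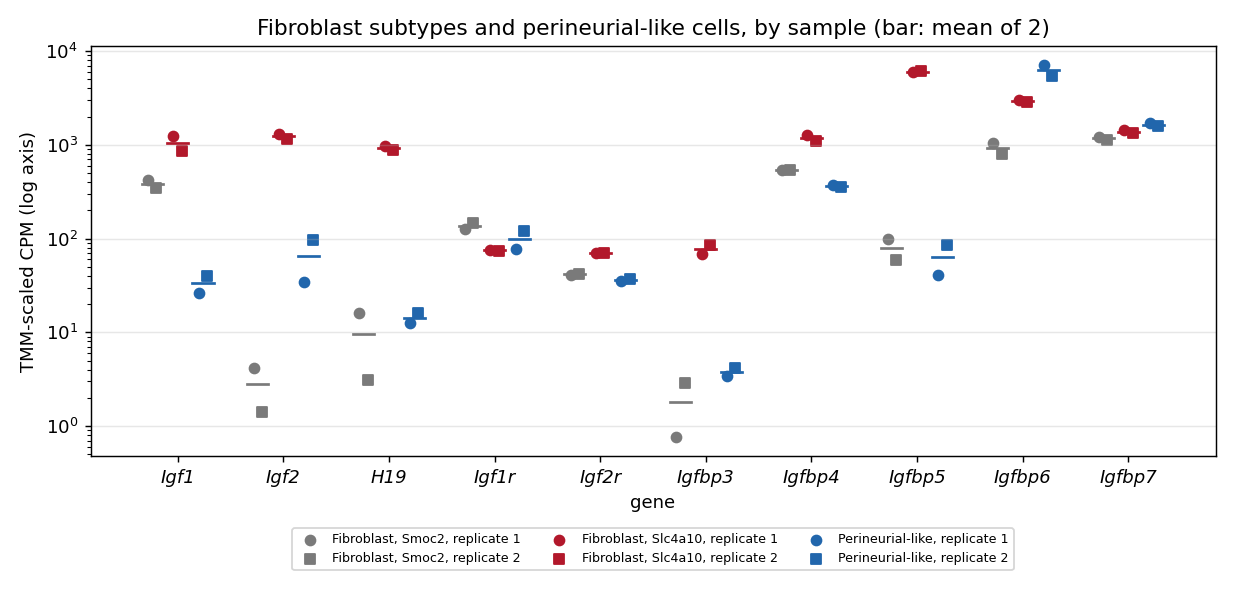
Level of each gene (y axis, TMM-scaled CPM on a log axis) in *Smoc2* fibroblasts (grey), *Slc4a10* fibroblasts (red) and perineurial-like cells (blue), with circles for replicate 1, squares for replicate 2 and bars for the mean of both. The 3 types lie within 1119.9 to 1701 CPM for *Igfbp7*, whereas *Igf2* runs from 1.43 to 1295 CPM.

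The fibroblast subtypes were then set against each other directly. Of the 10 genes, 8 were higher in *Slc4a10* than in *Smoc2* fibroblasts, 1 was lower and *Igfbp7* did not pass (log2 difference 0.25, SE 0.14, adjusted p = 0.246). Over all genes tested 12.4% were higher, 12.7% were lower and 25.1% differed either way. The 8 include *Igf2*, whose difference of 8.93 (SE 0.35) is a description only. *H19* was higher by 6.81 (SE 0.29, adjusted p = 1.96e-11), and the binding protein *Igfbp5* by 6.28 (SE 0.41, adjusted p = 1.30e-07). *Igfbp3* was higher by 5.23 (SE 0.37, adjusted p = 5.37e-10). The smaller differences were in *Igfbp6* (1.68, SE 0.27, adjusted p = 0.000429) and *Igf2r* (0.76, SE 0.14, adjusted p = 0.000133), beside those in *Igf1* and *Igfbp4* given above. *Igf1r* was lower by -0.88 (SE 0.14, adjusted p = 1.91e-05). The median log2 difference was 1.56 over the 10 genes. The count of 9 was the same under every setting that gave a test.

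Perineurial-like cells, named for the flat cells of the sheath around nerve and ganglion, were set against the mean of the fibroblast subtypes. They carry fibroblast markers as well, as given above. Of the 10 genes 7 differed, against 15.9% of all genes, 2 of them higher (8.24%) and 5 lower (7.7%). *Igf1* was lower by -4.19 (SE 0.31, adjusted p = 2.16e-07), *Igfbp5* by -3.35 (SE 0.39, adjusted p = 5.05e-05) and *H19* by -2.55 (SE 0.40, adjusted p = 0.000192). *Igfbp4* was lower by -1.13 (SE 0.11, adjusted p = 2.57e-08) and *Igf2r* by -0.57 (SE 0.16, adjusted p = 0.0145). *Igfbp7* was higher by 0.37 (SE 0.12, adjusted p = 0.0452), and *Igfbp6*, known to lead these cells, by 1.95 (SE 0.22). *Igf1r* (0.01, SE 0.13), *Igf2* (0.36, SE 0.35) and *Igfbp3* (-1.67, SE 0.62, adjusted p = 0.0754) did not pass. A mean over subtypes that lie far apart, as for *Igf2*, *H19* and *Igfbp5*, falls between them on the log scale. Perineurial-like cells overlapped *Smoc2* fibroblasts in *H19*, as given above, and in *Igfbp5*. Without TMM scaling they held 44.2 and 90.7 CPM of *Igfbp5*, against 93.5 and 56.8 CPM in *Smoc2* fibroblasts.

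**Figure D3:**
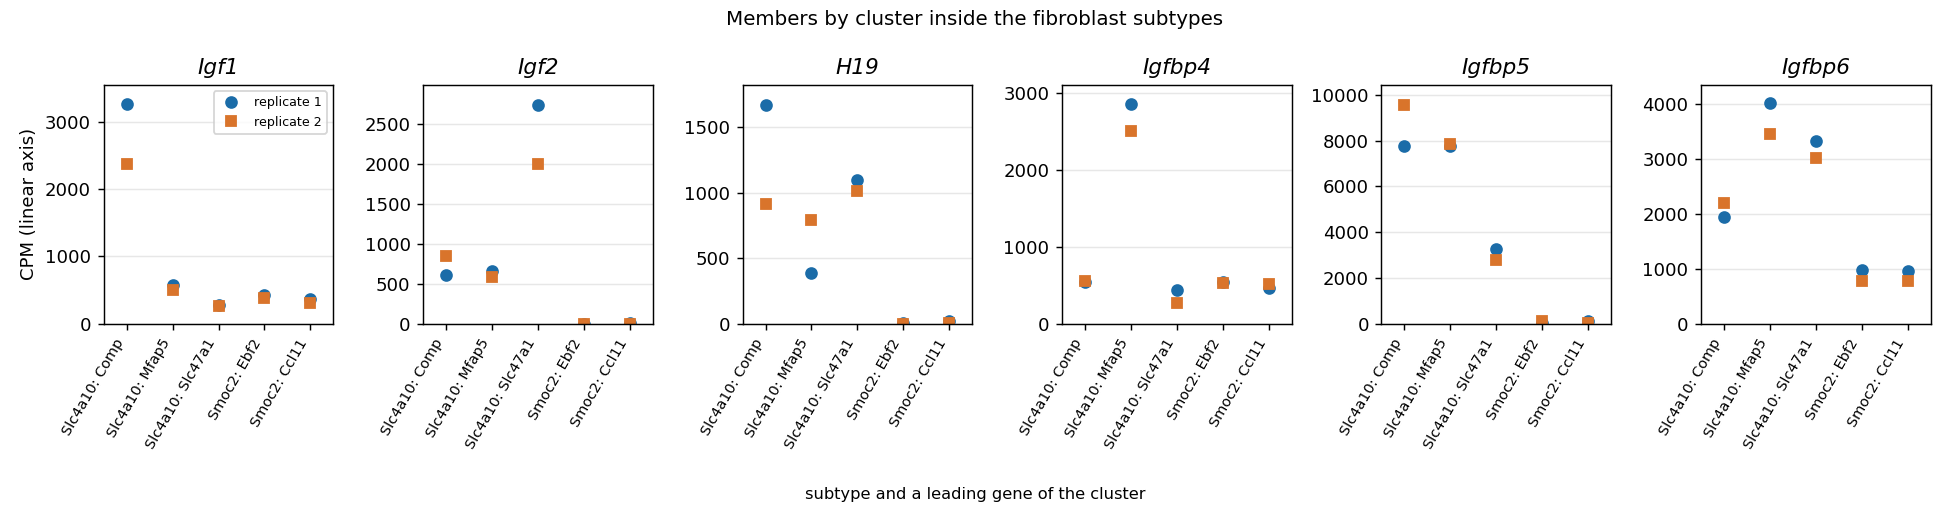
Level of 6 genes (y axis, CPM without TMM scaling, linear from 0) in the 5 clusters of the fibroblast subtypes (x axis, named by subtype and a leading gene), with circles for replicate 1 and squares for replicate 2. *Igf1* peaks in the *Comp* cluster, *Igf2* in the *Slc47a1* cluster and *Igfbp4* in the *Mfap5* cluster of *Slc4a10* fibroblasts, in both samples.

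Inside the *Slc4a10* fibroblasts the genes did not peak in the same cells. The subtype consists of 3 clusters, described here without a test and as CPM without TMM scaling. *Igf1* is itself the leading gene of the first cluster below, and *Igf2* and *H19* are among the 10 leading genes of the second, so these levels describe the clusters and are no separate finding. Each cluster is named here for 1 of its 10 leading genes. The cluster of *Comp*, a cartilage matrix gene (51 and 49 cells), held 3264 and 2373 CPM of *Igf1* but 617 and 847 CPM of *Igf2*. In the cluster of *Slc47a1*, a cation transporter gene (65 and 107 cells), the order was turned, with 285 and 266 CPM of *Igf1* and 2742 and 1998 CPM of *Igf2*. The cluster of *Mfap5*, a microfibril gene (68 and 61 cells), held 582 and 508 CPM of *Igf1* and 657 and 590.4 CPM of *Igf2*. For either ligand the highest cluster was clear of the other clusters in both samples.

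The binding proteins divided the clusters in another way. *Igfbp4* was highest in the *Mfap5* cluster, with 2856 CPM in replicate 1 and 2500 in replicate 2, against 539 and 556 CPM in the *Comp* cluster and 439 and 273 CPM in the *Slc47a1* cluster. *Igfbp5* was lowest in the *Slc47a1* cluster, with 3282 and 2804 CPM, and lay between 7770 and 9561 CPM in the others. *Igfbp6* was lowest in the *Comp* cluster, with 1946 and 2203 CPM, and ran from 3026 to 4018 CPM in the others. *H19* was at 1668 and 910.2 CPM in the *Comp* cluster, at 1097 and 1014 CPM in the *Slc47a1* cluster and at 386 and 792 CPM in the *Mfap5* cluster, and the clusters with *Comp* and *Slc47a1* overlapped. The clusters of *Smoc2* fibroblasts were close to each other, at 424 and 382 CPM of *Igf1* in the *Ebf2* cluster and at 374 and 310.2 CPM in the *Ccl11* cluster.

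The share of cells with a UMI was computed with every cell thinned down to 1000 UMIs, which makes depth equal, with exact binomial 95% intervals that cover counting error only. In *Slc4a10* fibroblasts *Igf1* was found in 33.2% of cells (28.5 to 38.1), *Igf2* in 33.7% (29.0 to 38.6) and *H19* in 39.3% (34.5 to 44.4). In SGCs, which share the suspension, the same genes were found in 0.0826%, 0.0354% and 0.0708% of cells. *Smoc2* fibroblasts held *Igf1* in 26.4% of cells (23.0 to 30.1), although their level was lower, and *Igf2* in 0.493%. The order of the subtypes for *Igf1* depended on depth. Thinned to 2000 UMIs, the share was 47.25% in *Smoc2* and 46.54% in *Slc4a10* fibroblasts, and without thinning 87.42% and 67.58%. In the *Slc4a10* subtype the 10% of cells with the most *Igf1* UMIs held 59.0% of them, against 29.8% in the *Smoc2* subtype, and the median cell held 3 UMIs in either.

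*Igfbp5* was found in 81.7% of *Slc4a10* fibroblasts (77.5 to 85.5), and *Igfbp6* in 93.3% of perineurial-like cells (88.6 to 96.5). *Igfbp7* was found in 95.3% of mural cells (93.4 to 96.8) and in 89.6% of endothelial cells (86.2 to 92.5). *Igfbp4* was found in 37.8% of *Slc4a10* fibroblasts (33.0 to 42.8) and in 30.3% of SGCs (29.3 to 31.3). Without thinning the order was turned, with 73.32% and 85.78%. Among non-myelinating Schwann cells 30.7% held *Igf1r* (28.3 to 33.2). Macrophages held *Igf1* in 12.3% of cells (9.14 to 16.2). *Igf2r* and *Igfbp3* were found in few cells even in their highest type, 7.20% (4.84 to 10.2) and 5.14% (3.17 to 7.83) of *Slc4a10* fibroblasts.

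*H19* was found in a larger share of the *Slc4a10* fibroblasts with an *Igf2* UMI than of those without. Of the thinned cells with an *Igf2* UMI, 64.4% in replicate 1 (38 of 59) and 59.7% in replicate 2 (43 of 72) also held *H19*. Of the cells without *Igf2*, 30.8% and 25.4% held it. *Igf2* showed no single direction with *Igf1*, and was found in 34.8% and 25.4% of cells with *Igf1* and in 31.9% and 38.1% of cells without. Cells of a sample are not replicates, and these shares are given without a test.

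**Figure D4:**
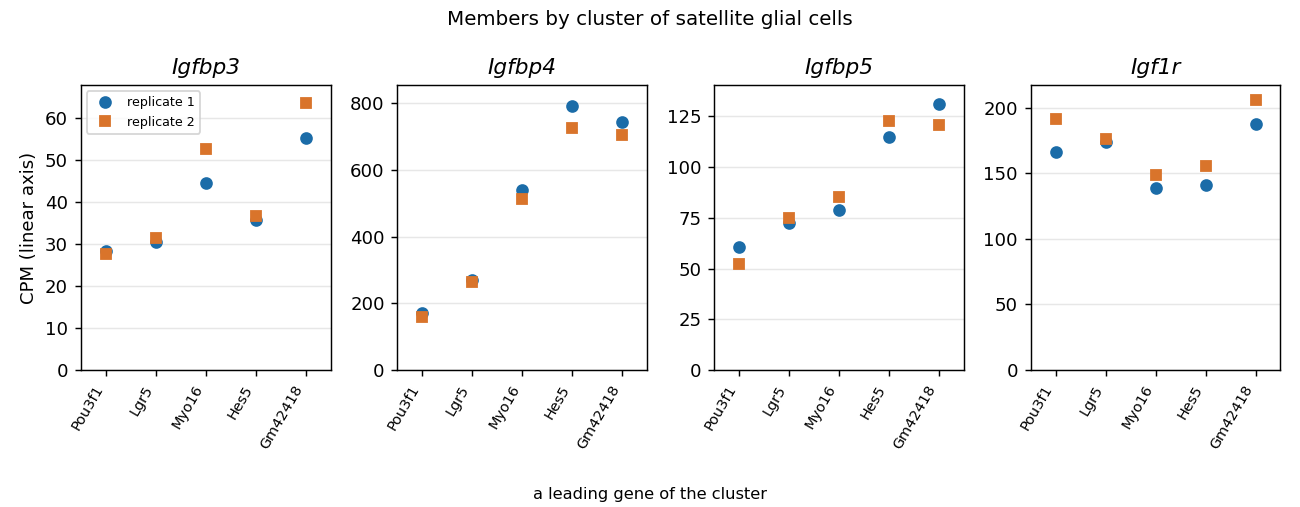
Level of 4 genes (y axis, CPM without TMM scaling, linear from 0) in the 5 clusters of SGCs (x axis, named by a leading gene), with circles for replicate 1 and squares for replicate 2. *Igfbp4* runs from 159 CPM in the *Pou3f1* cluster to 791 CPM in the *Hes5* cluster, whereas *Igf1r* stays between 139 and 206 CPM.

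The clusters named as SGCs, which together held most *Igfbp4* UMIs, also differed among themselves. *Igfbp4* was at 171 and 159 CPM in the cluster led by *Pou3f1*, a transcription factor of glia (1491 and 1149 cells), and at 271 and 265 CPM in the *Lgr5* cluster (797 and 905 cells). The *Myo16* cluster held 539 and 514 CPM. The *Hes5* cluster, named for a Notch target (778 and 1017 cells), held 791 and 726 CPM, and the *Gm42418* cluster 744 and 706 CPM. Apart from these last 2 clusters, which overlapped, the values of both samples kept the clusters apart. The *Pou3f1* cluster, with the lowest values, was named from 4 SGC markers, and the others from 6 to 9. At a clustering resolution of 1.2 a cluster led by *Pou3f1* (1463 cells) had 2 SGC markers and was left unnamed. SGCs then numbered 6963 in place of 8479. *Igfbp3* ran from 28.4 and 27.7 CPM in the *Pou3f1* cluster to 55.4 and 63.6 CPM in the *Gm42418* cluster, and *Igfbp5* from 60.5 and 52.4 CPM in the *Pou3f1* cluster to 115 to 131 CPM in the *Hes5* and *Gm42418* clusters. *Igf1r* had another order, with the lowest values in the *Myo16* cluster (139 and 149 CPM) and the highest in the *Gm42418* cluster (187 and 206 CPM).

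RNA of empty droplets held 34.9 and 31.7 CPM of *Igf1*, 31.2 and 29.8 of *Igf2* and 31.2 and 23.1 of *H19*. Its share of a profile was estimated from the marker of another type that was lowest there, and ran from 0 to 2.37%. It was 0 for *Slc4a10* fibroblasts of replicate 2 and for perineurial-like cells of both samples, where any UMI is above it. A marker missed through low counts also gives 0, so the estimate is no firm upper limit. Other markers would give larger shares. *Fabp7* was at 2858 and 3340 CPM in leukocytes, against 8227 and 7776 CPM in empty droplets. Whether that *Fabp7* came from free RNA or from doublets was not tested. The level was above the estimated amount of free RNA in 21, 20 and 21 of 22 profiles for these 3 genes, and above 3 times that amount in 16, 14 and 11. For the other 7 genes all 22 profiles were above it. Above 3 times that amount were 17 profiles for *Igfbp6*, 18 for *Igfbp7*, 20 for *Igfbp4*, 21 for *Igfbp3* and 22 for the rest. The largest estimated amount in any profile was 0.825 CPM of *Igf1* and 0.737 CPM of either *Igf2* or *H19*.

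Of 30 other genes of the IGF pathway, 25 had enough UMIs for a test and 24 of them differed between types, near the background of 90.5%. With *Slc4a10* set against *Smoc2* fibroblasts, 11 were higher (background 12.4%), 4 were lower (12.7%) and 10 did not pass, with a median log2 difference of 0. Among the genes at 10 CPM or more, the growth hormone receptor *Ghr* was highest in *Slc4a10* fibroblasts with 1345 and 1571 CPM, by 2.40 over *Smoc2* fibroblasts (SE 0.17, adjusted p = 1.08e-09). The proteases that cut binding proteins, *Pappa* (25.1 and 34.0 CPM) and *Pappa2* (31.2 and 38.6 CPM), were highest in the same fibroblasts, by 1.74 (SE 0.55, adjusted p = 0.0291) and 5.06 (SE 0.48, adjusted p = 8.81e-08). So was *Igfbp2*, another binding protein, with 59.8 and 141 CPM (3.47, SE 0.69, adjusted p = 0.00288).

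The order differed for the insulin receptor and for genes downstream of the receptors. *Insr*, the insulin receptor, was highest in endothelial cells with 405 and 539.6 CPM, and so was the transcription factor *Foxo1* with 205 and 219 CPM. *Grb14*, an inhibitor of insulin receptor signalling, stood at 399 and 357 CPM there and was lower in *Slc4a10* than in *Smoc2* fibroblasts by -1.86 (SE 0.27, adjusted p = 1.79e-05). *Irs2*, an adaptor of both receptors, was highest in *Smoc2* fibroblasts with 171 and 137 CPM, and in *Slc4a10* fibroblasts it was lower by -2.95 (SE 0.19, adjusted p = 3.15e-11). *Grb10*, an imprinted inhibitor of the receptors, was higher there by 1.28 (SE 0.11, adjusted p = 1.58e-09). The adaptors *Irs1* (0.52, SE 0.14, adjusted p = 0.00637) and *Shc1* (0.43, SE 0.14, adjusted p = 0.0274) were higher. *Insr* (-0.30, SE 0.17, adjusted p = 0.240) did not pass.

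Other imprinted genes went in both directions. Of 18 listed, 17 were tested, 5 were higher in *Slc4a10* than in *Smoc2* fibroblasts (background 12.4%), 8 were lower (12.7%) and 4 did not pass, with a median log2 difference of -0.66. *Cdkn1c*, a cell cycle inhibitor, was higher by 1.21 (SE 0.16, adjusted p = 3.07e-06), and *Plagl1*, a zinc finger factor, by 1.21 (SE 0.22, adjusted p = 0.000205). *Gnas* was higher by 1.86 (SE 0.08, adjusted p = 2.12e-14) and *Airn*, the antisense partner of *Igf2r*, by 0.48 (SE 0.15, adjusted p = 0.0220). The Notch-like ligand *Dlk1* was lower by -6.47 (SE 0.55, adjusted p = 4.73e-09), with 50.4 and 80.4 CPM in *Smoc2* fibroblasts. *Mest* was lower by -2.45 (SE 0.21, adjusted p = 4.14e-09) and *Meg3*, the noncoding neighbour of *Dlk1*, by -1.14 (SE 0.32, adjusted p = 0.0192). Counts do not tell parental alleles apart.

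As a description, the genes most alike in level were ranked by Pearson's r of log2(CPM + 1) over the 22 profiles, which share 2 libraries and hold each type 2 times. *Igf2* and *H19* had an r of 0.95 with each other, the highest among the 10 genes. The 3 nearest genes outside the 10 were *Tspan11* (0.97), *Clec11a* (0.95) and *Prdm6* (0.93) for *Igf2*, and *Tspan11* (0.96), *Clec11a* (0.95) and *Gm29478* (0.95) for *H19*. For *Igf1* they were *Serpinf1* (0.93), *Tmem119* (0.93) and *Plbd2* (0.92). The receptors differed, with *Prex2* (0.85), *Acvr2b* (0.83) and *Cpped1* (0.82) for *Igf1r* and *Airn* (0.93), *Kalrn* (0.92) and *Hoxb6* (0.92) for *Igf2r*, which *Airn* overlaps. Among the binding proteins *Igfbp3* was nearest to *Nav2* (0.85), *Ndnf* (0.82) and *Alpl* (0.81), and *Igfbp4* to *Cpq* (0.92), *Fmo1* (0.91) and *Kdelr1* (0.89). *Igfbp5* was nearest to *Tgfb3* (0.93), *Lox* (0.89) and *Gm26512* (0.85), *Igfbp6* to *Itgbl1* (0.97), *Shisa3* (0.96) and *Svep1* (0.96), and *Igfbp7* to *Ccn2* (0.95), *Pdgfd* (0.93) and *Tm4sf1* (0.92). *Igf1r* had the weakest nearest gene of the 10.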

How the data were processed

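The deposited files hold raw UMI counts of every gene in every droplet of both samples, written by Cell Ranger 7.1.0 per the file headers, with mm10 named in the submitters' processing notes. The annotation version and whether intronic reads or strand entered the counts are not given in the sources used here. Cells were called in steps written for this work. Droplets reaching 4596.2 UMIs in replicate 1 or 4390.8 in replicate 2 were called without a test, 7346 and 7515 in number. Droplets below that with at least 500 UMIs were tested against empty droplets (10000 simulations, false discovery rate 0.01), which added 1586 and 1357. Cells were kept with over 300 genes. They were normalized with sctransform 0.4.2 and clustered in Seurat 5.3.0 (3000 variable genes, 30 components, resolution 0.8), leaving out of the variable genes the 10 genes and both gene lists. Clusters of connective tissue were clustered again. Clusters with few genes, high mitochondrial share, high doublet scores or markers of 2 classes were removed. Single cells over 45811.7 UMIs or 21.8628% mitochondrial UMIs were removed as well, with neurons exempt from the UMI cutoff. UMIs were summed per sample and type, giving 22 profiles of 815281 to 64426256 UMIs, and genes reaching 10 UMIs in 2 or more profiles were tested in edgeR 4.0.16 (quasi-likelihood, TMM, Benjamini-Hochberg over all genes tested, threshold 0.05) in R 4.3.3, without a replicate term. In counts simulated for *Slc4a10* fibroblasts against the mean of the other types (17922 genes), 97% of 2-fold and 99% of 4-fold changes were recovered, and 1.95% of unchanged genes were called. The omnibus test called 5% of unchanged genes. Genes of low level were left out of the changed ones, which were made equal over the other types. The 10 genes vary among those types, so these rates need not hold for them. All 10 genes are described. Of the lists, genes at 10 CPM or more in their highest type may be named, and the 3 most alike genes are named for each of the 10. The members, lists and the rules for perineurial-like cells and removed clusters were chosen with earlier results of these data known. The replicate number marks a single dissociation of all types. Deviations of same-numbered profiles correlated with a median r of 0.0690 over 55 pairs of types, over 0.1 in 13.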

Additional observations from a re-analysis of the deposited data

Results flagged for a closer look

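Outside the cells analysed, droplets not called as cells held insulin transcripts, with 50204 *Ins1* UMIs in replicate 1 and 37303 in replicate 2, and 79152 and 59044 *Ins2* UMIs. Droplets with at least 20 *Ins2* UMIs numbered 1491 and 1143, of which 4 and 10 were called as cells. Among named types both genes were highest in leukocytes, at 78.5 and 419.6 CPM of *Ins1* and 90.0 and 694 CPM of *Ins2*. The source of these UMIs was not tested.

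A cluster removed for carrying markers of both mural cells and fibroblasts (25 and 26 cells, 27.45% with a high doublet score) held 3035 and 2283 CPM of *Igfbp4*, above the level of every named type in both samples.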

How the results depend on the processing

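Over up to 13 other settings the number of the 10 genes differing between types stayed at 10, and between fibroblast subtypes at 9. The highest type passed against the next in 7 to 9 genes, 6 to 9 genes differed in perineurial-like cells, 37 to 41 pairs of gene and type were higher and 38 to 51 lower. Of 87 calls on pairs, 64 were kept in every setting compared, 12 in number, or 11 for neurons. No direction was reversed among the differences between highest and next type, which lost 7 calls, those named beside the results and 1 for *Igfbp6*. The 3 settings that treat neurons or shared barcodes in another way were chosen after seeing the data.

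With a replicate block, which pairs the profiles of a dissociation, 10 genes differed between types, 41 pairs were higher and 47 lower, 9 genes differed between subtypes and 8 in perineurial-like cells. It kept 86 of the 87 calls, lost 1 and gained 2.

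Without a replicate no residual degrees of freedom remain, so the counts of calls have no value there. Log2 differences of highest and next type then ran from 1.315 to 1.549 for *Igf1*, 3.599 to 5.228 for *Igf2*, 5.753 to 6.252 for *H19*, 0.3795 to 0.5422 for *Igf1r*, 0.4084 to 0.5105 for *Igf2r*, 0.5129 to 0.6579 for *Igfbp3*, 1.029 to 1.237 for *Igfbp4*, 3.053 to 3.062 for *Igfbp5*, 0.9358 to 1.258 for *Igfbp6* and 0.154 to 0.1774 for *Igfbp7*.

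Shares of cells with a UMI rose with depth by construction. With thinning to 2000 UMIs and with none, they were 46.54% and 67.58% for *Igf1*, 44.04% and 60.6% for *Igf2*, 47.09% and 65.59% for *H19*, 48.54% and 78.37% for *Igf1r*, 13.85% and 52.62% for *Igf2r*, 9.695% and 22.94% for *Igfbp3*, 52.63% and 73.32% for *Igfbp4*, 85.87% and 92.02% for *Igfbp5*, 96.02% and 98.9% for *Igfbp6*, and 97.38% and 99.28% for *Igfbp7*, each in its highest type. Depth limits the lowest values most. Neurons held 2 and 1 *Igf2* UMIs in all, and leukocytes had too few UMIs per cell for 164 of 444 cells to be thinned.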
